A study of Mus musculus with 12 samples.

Results

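The 9 genes described here, *Pdk4*, *Angptl4*, *Cpt1a*, *Slc25a20*, *Ehhadh*, *Acaa1b*, *Acot1*, *Acot2* and *Vnn1*, are textbook fasting-induced targets of the nuclear receptor PPARα. They were chosen by symbol from the 39017 genes of the deposited count table, and all 9 passed the filter on low counts. Their levels were compared across 12 mouse lung tumors in which a dominant negative form of PPARα could be induced.

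PPARα is a ligand-activated transcription factor that pairs with RXR and binds DNA at repeats of AGGTCA. In the fasted liver, fatty acids released from fat tissue activate it, and its targets carry fatty acids into mitochondria and peroxisomes, oxidize them there and spare glucose. In the lung, alveolar type II cells make the lipids of surfactant, and tumors of the kind studied here retain markers of these cells.

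KP mice (C57BL6/J) form lung tumors once Cre is delivered and carry p53 alleles that Cre deletes (Fl/Fl) and the *CCSP-rtTA* transgene. KPG1 mice carry floxed *Slc2a1* (Glut1) alleles (Fl/Fl) in addition. By the paper's methods, control mice were either wild type for *Slc2a1* or heterozygous for the floxed allele. Which of these the KP mice were is not known here. All mice, controls included, received 6000 lentiviral units of one vector that expresses Cre from the PGK promoter and holds PPARαΔ13 behind a doxycycline-responsive promoter. For the last 15 days, doxycycline was fed at 625 mg/kg of chow to the KP-PPARαΔ13 and KPG1-PPARαΔ13 groups. KP and KPG1 mice ate regular chow, so diet and induction cannot be told apart. The inducer rtTA is driven by the *CCSP* promoter, which limits induction to cells in which this promoter is active. Tumors were taken 26 weeks after initiation, CD45-positive immune cells were removed with magnetic beads, and each group held 3 tumors. By the number in the sample descriptions, read here as the mouse, the 12 tumors came from 9 mice: 2 KP, 3 KP-PPARαΔ13, 2 KPG1 and 2 KPG1-PPARαΔ13. P-values below measure the spread between tumors, some of which share a mouse. The 3 KP tumors were from female and the 3 KPG1 tumors from male mice, and both sexes occur in the other 2 groups. The age of the mice is given only as time since tumor initiation.

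Total counts ranged from 25263794 to 32654223 per tumor, and tumors of a group differed by far more than counting noise. *Slc2a1* did not set the KPG1 label apart on the regular diet, at a mean of 44.9 ± 11.54 CPM (read counts scaled to the size of the library) for KP tumors against 44.7 ± 17.4 for KPG1 tumors (SD, n = 3 for both). On doxycycline it was at 43.8 ± 17.4 in KPG1-PPARαΔ13 and 125.2 ± 23.9 in KP-PPARαΔ13, without overlap (log2 fold change -1.51, adjusted p = 0.462 from edgeR). KP-PPARαΔ13 was also above KP without overlap (1.48, adjusted p = 0.289 from edgeR). Neither difference passed the threshold of 0.05, and groups are named throughout as the tumors were labelled. *Ppara*, whose reads may come from the gene or the construct, was at 2.71, 64.5 and 246.0 CPM in KP-PPARαΔ13 tumors 1, 2 and 3, and between 7.24 and 19.2 CPM in the other 9 tumors. Of the tumors labelled as induced, only KP-PPARαΔ13 tumors 2 and 3 stood clearly above the control tumors. The 8 alveolar type II markers were abundant in every tumor (summed level 23783 to 77143 CPM). KP tumor 2 stood apart in its alveolar type I markers, with 265.8 CPM summed over 6 genes against 1435.6 to 3177.9 CPM in the other 11 tumors.

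Compared per kilobase of exon, the median levels over the 12 tumors fell in the order *Cpt1a* (17.3 CPM per kilobase), *Angptl4* (8.14), *Acot2* (7.70), *Slc25a20* (6.17), *Acot1* (4.85), *Vnn1* (4.75), *Ehhadh* (4.07), *Pdk4* (3.65) and *Acaa1b* (0.533). The 12-tumor ranges of all neighbors in this order overlapped. *Cpt1a* was above *Angptl4* in 11 of 12 tumors, whereas *Angptl4* was above *Acot2* in 6. All further levels are CPM after TMM scaling, which are not corrected for gene length, so that they compare tumors and not genes.

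*Pdk4* (ENSMUSG00000019577; mm10 chromosome 6, 5483351 to 5496309, minus strand) encodes a kinase that inactivates pyruvate dehydrogenase and so slows the oxidation of glucose. Its level was 64.0, 11.8 and 15.3 CPM in KP tumors 1, 2 and 3 and 8.43, 3.90 and 18.8 CPM in KP-PPARαΔ13 tumors. It was 21.8, 0.929 and 1.02 CPM in KPG1 tumors and 49.8, 8.48 and 13.8 CPM in KPG1-PPARαΔ13 tumors. A single tumor was far above the other two in KP, KPG1 and KPG1-PPARαΔ13, and all 4 groups overlapped. The highest and lowest tumors differed 68.8-fold, the widest range among the 8 genes detected in every tumor.

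*Angptl4* (ENSMUSG00000002289; chromosome 17, 33773750 to 33781830, minus strand) encodes a secreted inhibitor of lipoprotein lipase. It was measured at 15.3, 5.12 and 30.3 CPM in KP and at 45.2, 49.98 and 52.8 CPM in KP-PPARαΔ13. In KPG1 it was at 51.5, 26.2 and 19.99 CPM, and in KPG1-PPARαΔ13 at 27.4, 21.3 and 33.2 CPM. Every KP-PPARαΔ13 tumor was above every KP tumor and every KPG1-PPARαΔ13 tumor. This includes KP-PPARαΔ13 tumor 1, whose *Ppara* level of 2.71 CPM was the lowest of the 12 tumors.

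*Cpt1a* (ENSMUSG00000024900; chromosome 19, 3322334 to 3385733, plus strand) encodes the carnitine palmitoyltransferase of the outer mitochondrial membrane, the controlled step of fatty acid entry. It reached 108.7, 109.8 and 118.3 CPM in KP and 145.5, 86.9 and 217.2 CPM in KP-PPARαΔ13. The KPG1 tumors had 190.5, 258.6 and 153.7 CPM, and the KPG1-PPARαΔ13 tumors 107.0, 103.5 and 157.0 CPM. The 3 KP tumors were close together, and all KPG1 tumors were above them.

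*Slc25a20* (ENSMUSG00000032602; chromosome 9, 108662088 to 108684641, plus strand) encodes the translocase that carries acylcarnitines across the inner mitochondrial membrane. Its level was 33.4, 27.8 and 28.4 CPM in KP and 29.2, 26.0 and 26.3 CPM in KP-PPARαΔ13. It was 24.6, 34.8 and 34.02 CPM in KPG1 and 37.7, 32.1 and 30.6 CPM in KPG1-PPARαΔ13. This was the steadiest of the 9 genes, with a highest tumor 1.54-fold above the lowest.

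*Ehhadh* (ENSMUSG00000022853; chromosome 16, 21761287 to 21787807, minus strand) encodes the bifunctional enzyme of peroxisomal β-oxidation. It had 10.4, 10.7 and 8.31 CPM in KP and 11, 12.3 and 15.6 CPM in KP-PPARαΔ13. In KPG1 it had 15.99, 14.4 and 16.6 CPM, and in KPG1-PPARαΔ13 9.27, 14.8 and 12.03 CPM. KP tumors were the lowest as a group, below every KP-PPARαΔ13 and every KPG1 tumor, within an overall range of 1.99-fold.

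*Acaa1b* (ENSMUSG00000010651; chromosome 9, 119148023 to 119157093, minus strand) encodes a peroxisomal thiolase that cleaves 3-ketoacyl-CoA. It was low, with 0 to 210 counts per tumor, at 0.650, 2.12 and 0.835 CPM in KP and 0.137, 2.97 and 1.77 CPM in KP-PPARαΔ13. KPG1 tumor 1 had 0 counts, which allows up to 0.120 CPM (3 counts, for counting error only), and the other two had 0.551 and 1.26 CPM. KPG1-PPARαΔ13 tumors had 0.614, 6.72 and 2.77 CPM, the highest of them with 210 counts. All groups overlapped.

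*Acot1* (ENSMUSG00000072949; chromosome 12, 84009490 to 84018371, plus strand) and *Acot2* (ENSMUSG00000021226; chromosome 12, 83987861 to 83993873, plus strand) are neighboring genes for acyl-CoA thioesterases, cytosolic and mitochondrial in turn, which release free fatty acids from CoA. *Acot1* was at 30.6, 19.3 and 25.9 CPM in KP tumors, at 7.23, 29.5 and 0.971 CPM in the KP-PPARαΔ13 group, at 17.8, 6.99 and 18.7 CPM in KPG1 tumors and at 30.7, 23.0 and 18.2 CPM in the KPG1-PPARαΔ13 group. *Acot2* was at 28.0, 15.8 and 17.7 CPM in KP tumors, at 7.74, 33.9 and 3.65 CPM in the KP-PPARαΔ13 group, at 16.1, 8.05 and 19.4 CPM in KPG1 tumors and at 22.0, 18.7 and 14.6 CPM in the KPG1-PPARαΔ13 group. Both genes were lowest in KP-PPARαΔ13 tumor 3, which had the highest *Ppara* level, and *Acot2* was highest in KP-PPARαΔ13 tumor 2, which had the second highest. These tumors are the only 2 with *Ppara* clearly above the controls, and they lay at opposite ends of the range of *Acot2*.

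*Vnn1* (ENSMUSG00000037440; chromosome 10, 23894688 to 23905343, plus strand) encodes a membrane-anchored pantetheinase, which releases pantothenate, the vitamin precursor of CoA. It was at 11.53, 1.30 and 16 CPM in KP tumors, at 13.1, 11.4 and 7.30 CPM in the KP-PPARαΔ13 group, at 22.9, 3.65 and 5.88 CPM in KPG1 tumors and at 2.18, 14.3 and 19.5 CPM in the KPG1-PPARαΔ13 group. Low tumors occurred in 3 of the 4 groups, and the groups overlapped fully. KP tumor 2, which stood apart in its alveolar type I markers, had the lowest level of both *Vnn1* and *Angptl4*, and the part of those cells in either level was not tested.

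**Figure D1:**
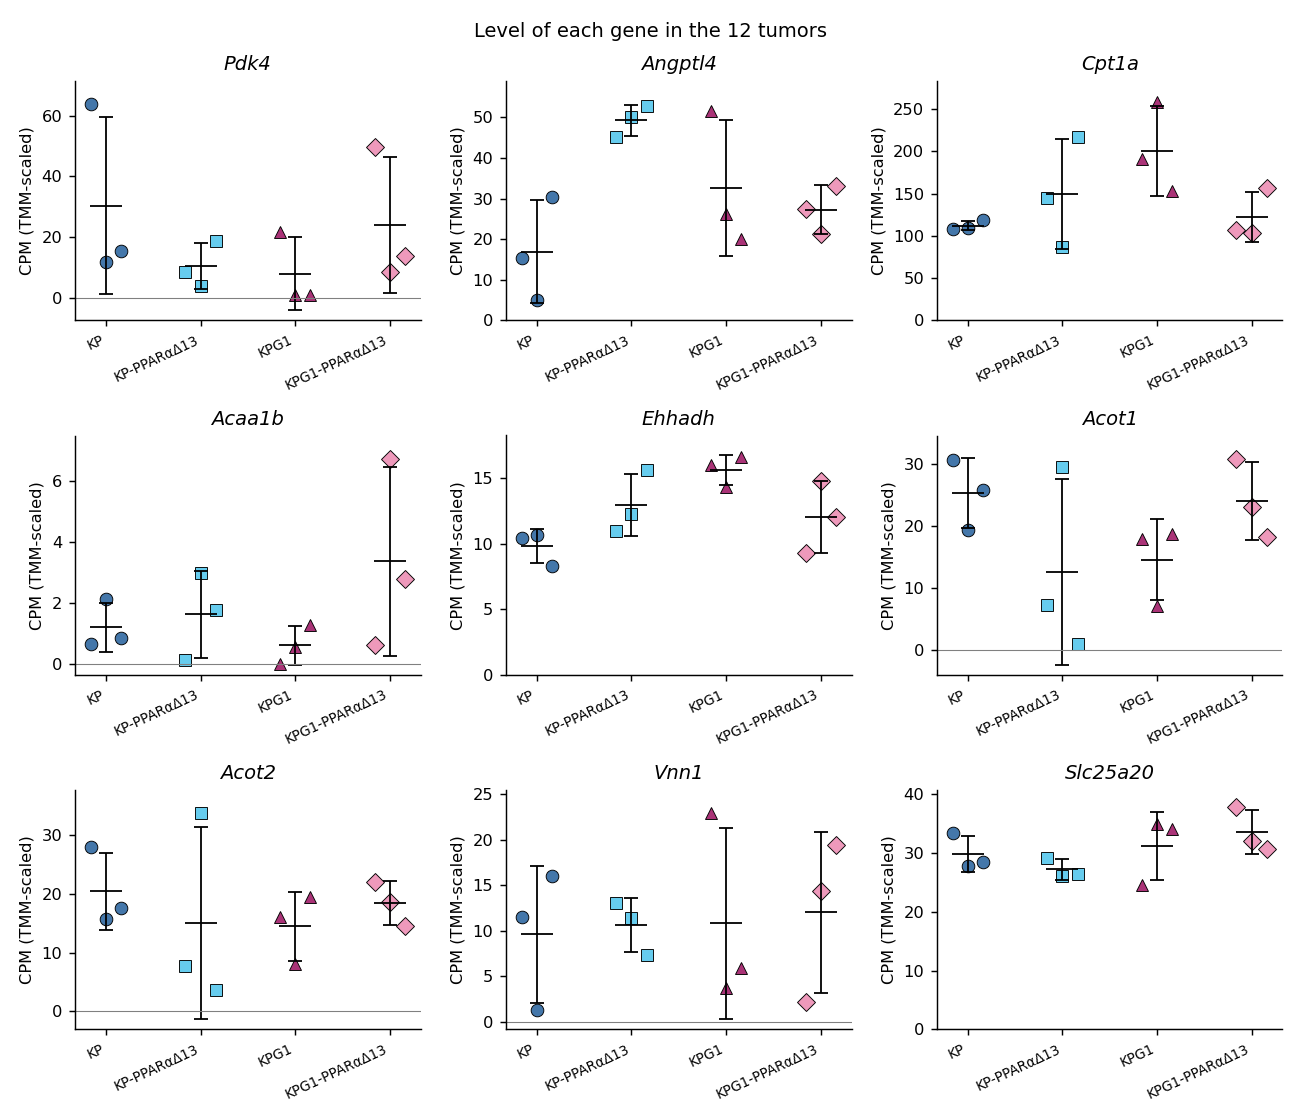
Level of each of the 9 genes (y axis, TMM-scaled CPM, linear and starting at or below 0) in the 12 tumors, 3 per group on the x axis; horizontal bars are means and vertical bars SDs. *Angptl4* in KP-PPARαΔ13 lies above every KP tumor, whereas *Pdk4* and *Vnn1* spread widely within groups.

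How far reads can be assigned between near-identical genes bears on 3 of the 9. Of the 85-base windows in the exons of *Acaa1b*, 22.4% also occur in its paralog *Acaa1a* and 7.5% on the opposite strand of *Dlec1*. Of the *Acot2* windows 19.1% occur in *Acot1*, and of the *Acot1* windows 14.0% occur in another gene. Over 1236 aligned coding bases *Acot1* and *Acot2* differed at 58 (95.3% identity), with an identical run of 273 bases, so their counts are uncertain to that extent. The coding stretch of 85 bases (the read length) in which they differ most, in exon 3 of each gene, shows that even there only 14 bases separate them; capitals mark the differing bases (GRCm38, plus strand, *Acot1* at chr12:84016921-84017005 and *Acot2* at chr12:83992643-83992727).
Acot1: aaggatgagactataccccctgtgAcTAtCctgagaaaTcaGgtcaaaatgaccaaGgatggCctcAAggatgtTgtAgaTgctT
Acot2: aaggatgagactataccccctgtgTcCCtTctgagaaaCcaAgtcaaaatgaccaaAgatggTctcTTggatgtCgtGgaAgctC
The next 120 bases (chr12:84017006-84017125 and chr12:83992728-83992847) are the same in both genes, and a read from there names neither.
Acot1 and Acot2: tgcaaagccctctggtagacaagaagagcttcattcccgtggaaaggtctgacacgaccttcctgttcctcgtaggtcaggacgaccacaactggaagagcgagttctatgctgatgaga
*Acaa1b* and *Acaa1a* differed at 44 of 1272 coding bases (96.5% identity). Their most different 85 bases span exons 6 and 7 (GRCm38, *Acaa1b* chr9:119150898-119151893 on the minus strand and *Acaa1a* chr9:119346491-119347736 on the plus strand, intron included), again with the differing bases in capitals.
Acaa1b: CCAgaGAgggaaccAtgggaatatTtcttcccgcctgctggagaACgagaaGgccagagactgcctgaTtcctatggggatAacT
Acaa1a: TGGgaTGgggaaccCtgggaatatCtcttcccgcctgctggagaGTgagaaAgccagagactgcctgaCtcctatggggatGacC
*Acaa1a* was at 50.3 to 98.9 CPM, and the share of its reads that was counted for *Acaa1b* was not tested.

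Promoter windows of 300 bases, from 250 before to 50 after the start, were found in RefSeq (GRCm38.p6) for 7 of the 9 genes, without *Angptl4* and *Vnn1*. They were searched on both strands for the single motif AGGTCA and for the repeat AGGTCANAGGTCA with up to 2 mismatches. The single motif occurs in 16.3% of all 32851 promoter windows and the repeat in 3.86% (0.0396% without a mismatch). Of the 7 windows, *Cpt1a* held the single motif on the minus strand, and *Slc25a20* held the repeat with 2 mismatches, from position 257 to 269 of the window. Both windows are printed 5′ to 3′ as the gene reads, with the match in capitals. A match is a description and not a binding site, and in the other windows these letters were not found within the 300 bases searched.
Cpt1a, plus strand, chr19:3323051-3323350: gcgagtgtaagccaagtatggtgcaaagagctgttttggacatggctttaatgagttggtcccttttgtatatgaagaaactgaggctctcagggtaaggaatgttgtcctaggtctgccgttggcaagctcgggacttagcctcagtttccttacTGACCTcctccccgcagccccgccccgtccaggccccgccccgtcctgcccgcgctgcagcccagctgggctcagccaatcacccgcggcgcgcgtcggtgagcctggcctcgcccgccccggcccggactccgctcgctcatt
Slc25a20, plus strand, chr9:108661886-108662185: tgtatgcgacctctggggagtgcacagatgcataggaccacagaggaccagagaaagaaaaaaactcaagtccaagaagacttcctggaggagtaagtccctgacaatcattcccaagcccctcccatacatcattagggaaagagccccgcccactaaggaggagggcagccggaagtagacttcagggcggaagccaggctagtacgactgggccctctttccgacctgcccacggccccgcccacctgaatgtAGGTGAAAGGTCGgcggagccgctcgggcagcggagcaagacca

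The first comparison asks whether PPARα targets differed between KP-PPARαΔ13 and KP tumors, as labelled. Induction names the doxycycline label from here on, since *Ppara* stood clearly above the controls only in KP-PPARαΔ13 tumors 2 and 3. None of the 9 genes passed the test (edgeR quasi-likelihood, adjusted over 16527 genes, threshold 0.05), beside 1 gene or 0.00605% of all genes tested. *Angptl4* had the smallest p-value and was higher, not lower, in KP-PPARαΔ13: 49.3 ± 3.82 against 16.9 ± 12.7 CPM (SD, n = 3 tumors each). Its fold was 2.92 (log2 fold change 1.55, standard error 0.53, 95% interval 0.39 to 2.70), with adjusted p = 0.335 from edgeR. It was 1 of 9 genes at an unadjusted p under 0.05, a mark that 11.4% of all genes tested reached. *Angptl4* and *Ehhadh* were the 2 genes whose groups did not overlap, both higher in KP-PPARαΔ13, beside 13.3% of all genes in either direction, 6.55% higher and 6.7% lower. *Ehhadh* differed by 0.40 on the log2 scale (95% interval -0.15 to 0.95).

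*Pdk4* had the lowest log2 fold change in that comparison (-1.55), with an interval of -4.14 to 1.04. Without KP tumor 1, the highest of these 6 tumors, it was -0.385, and without KP-PPARαΔ13 tumor 3 it was -2.30. *Acot1* was at -1.01 (95% interval -2.80 to 0.78) and *Acot2* at -0.44 (-1.86 to 0.98). Both rested on single tumors. Without KP-PPARαΔ13 tumor 2 they were at -2.62 and -1.84 (adjusted p = 0.49 for both, edgeR), and without KP-PPARαΔ13 tumor 3 at -0.459 and 0.022. *Slc25a20* had the narrowest interval, from -0.56 to 0.29, which corresponds to folds of 0.679 to 1.22. For the 9 genes together, 5 log2 fold changes were above 0 and 4 below, with a median of 0.141 against -0.008 over all genes tested. Fibroblast markers were higher alongside *Angptl4*: their summed level over 5 genes was 112.1 to 241.3 CPM in KP and 265.5 to 528.5 CPM in KP-PPARαΔ13, without overlap. So were erythroid markers (5 genes), at 318.9 to 764.4 and 849.5 to 1319.2 CPM in turn. With KP tumor 2 left out, the *Angptl4* difference was 1.11 (adjusted p = 0.704 from edgeR), and without KP tumor 3 it was 2.27 (adjusted p = 0.173). The part of other cells in it was not tested. In such bulk fractions, fewer cells of a type and less RNA per cell cannot be told apart.

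The same question was asked in tumors labelled KPG1, where *Ppara* overlapped between KPG1-PPARαΔ13 (8.90 to 19.2 CPM) and KPG1 (7.24 to 15.3 CPM). None of the 9 genes passed the test (edgeR), beside 0.00605% of all genes tested, and none had groups that did not overlap, beside 20.6% of all genes, 11.2% higher and 9.41% lower. *Cpt1a* was the only one at an unadjusted p under 0.05 (10.8% of all genes), with 122.5 ± 29.9 CPM in KPG1-PPARαΔ13 and 200.9 ± 53.2 CPM in KPG1 (SD, n = 3 each). Its log2 fold change was -0.71 (standard error 0.31, 95% interval -1.40 to -0.03, adjusted p = 0.453 from edgeR). With sex as a covariate *Cpt1a* was at -0.450 (unadjusted p = 0.313 from edgeR), and with tumors of a mouse summed at -0.690 (unadjusted p = 0.116 from edgeR). Marker sums also differed, lower in KPG1-PPARαΔ13 without overlap: alveolar type II (8 genes) at 25463.6 to 40617.9 against 47898.8 to 77142.7 CPM, alveolar type I (6 genes) at 1435.6 to 1714.4 against 2199.4 to 2907.3 CPM, and adipocyte (5 of 6 genes detected) at 20.1 to 24.8 against 32.3 to 38.7 CPM. Their part in the *Cpt1a* difference was not tested. *Acaa1b* had the highest log2 fold change (2.46), with an interval of -0.34 to 5.27 that a tumor with 0 counts makes dependent on the fit. *Pdk4* was at 1.61 (-0.99 to 4.21), at 4.61 without KPG1 tumor 1 (adjusted p = 0.662 from edgeR) and at 0.502 without KPG1-PPARαΔ13 tumor 1. *Acot1* was at 0.73 (-1.06 to 2.51), and at -0.094 with sex as a covariate, and *Angptl4* was at -0.25 (-1.39 to 0.88). *Slc25a20* was at 0.10, and its interval of -0.32 to 0.53 leaves room for folds of 0.802 to 1.44. Of the 9 genes, 6 were above 0 and 3 below, with a median of 0.152 against 0.023 over all genes.

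**Figure D2:**
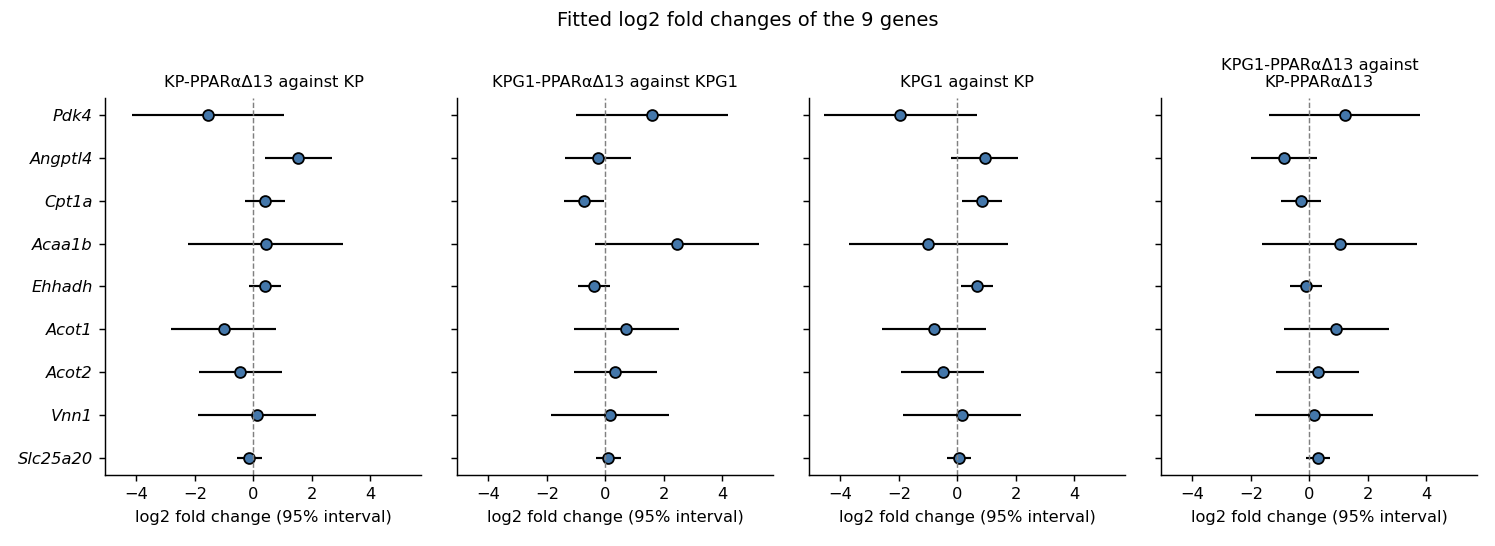
Fitted log2 fold changes (x axis, points) with 95% intervals (lines) of the 9 genes (y axis) in the 4 pairwise comparisons of 3 against 3 tumors. Intervals are narrow for *Slc25a20*, *Ehhadh* and *Cpt1a* and wide for *Pdk4*, *Acaa1b* and *Vnn1*; *Angptl4* in the first panel lies at 1.55.

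The 2 inductions, as labelled, share no tumor, and 7 of the 9 genes had log2 fold changes of opposite sign in them, as did 53.2% of all genes tested. *Pdk4*, *Acot1* and *Acot2* were below 0 in KP and above 0 in KPG1, and *Angptl4*, *Cpt1a* and *Ehhadh* the reverse. The difference between the inductions, tested as the interaction of genotype and induction, called none of the 9 genes and 0% of all genes (edgeR). Unadjusted p-values under 0.05 were reached by 3 of the 9 genes and by 11.8% of all genes. These were *Angptl4* (log2 difference -1.80, standard error 0.74, adjusted p = 0.399 from edgeR), *Cpt1a* (-1.13, standard error 0.44, adjusted p = 0.388) and *Ehhadh* (-0.78, standard error 0.35, adjusted p = 0.423). Averaged over both genotypes, the induction gave log2 fold changes of -0.15 (*Cpt1a*) to 1.45 (*Acaa1b*), none of which passed the test, beside 0.0182% of all genes, or had an unadjusted p under 0.05, beside 10.1%, or was without overlap, beside 0.49%.

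The comparison of tumors labelled KPG1 with KP on the regular diet asks whether floxed Glut1 alleles go along with PPARα targets, though *Slc2a1* itself overlapped between these groups. None of the 9 genes passed the test (edgeR), beside 0.0363% of all genes tested. *Cpt1a* was 1.79-fold higher in KPG1 (log2 fold change 0.84, standard error 0.31, 95% interval 0.15 to 1.53; adjusted p = 0.785 from edgeR), from 112.3 ± 5.24 CPM to 200.9 ± 53.2 CPM (SD, n = 3 each). *Ehhadh* was 1.59-fold higher (0.67, standard error 0.25, 95% interval 0.12 to 1.22; adjusted p = 0.785 from edgeR), from 9.82 ± 1.31 to 15.6 ± 1.16 CPM. These were the 2 genes at an unadjusted p under 0.05, beside 6.23% of all genes. Both were higher in every KPG1 tumor than in any KP tumor, and *Acot1* was lower in every one, which makes 3 of 9 genes without overlap beside 9.95% of all genes, 4.82% higher and 5.12% lower. *Angptl4* was at 0.95 (-0.20 to 2.09), *Pdk4* at -1.94 (-4.57 to 0.68; -0.780 without KP tumor 1 and -4.95 without KPG1 tumor 1), and *Slc25a20* at 0.06 (-0.36 to 0.48). Sex and genotype cannot be told apart by these 6 tumors alone. In a fit of all 12 tumors with sex as a covariate, the *Cpt1a* difference was 0.49 (adjusted p = 1 from edgeR) and the *Ehhadh* difference 0.38 (adjusted p = 1). *Acot1* and *Acot2* turned sign in that fit, from -0.80 to 0.656 and from -0.50 to 0.772. Club cell markers (4 genes) were higher in KPG1 without overlap, at 143.7 to 377.3 against 61.0 to 129.3 CPM, and macrophage markers (6 genes) lower, at 32.2 to 40.9 against 48.4 to 149.9 CPM. Their part in these differences was not tested.

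Under doxycycline, tumors labelled KPG1-PPARαΔ13 and KP-PPARαΔ13 gave no call among the 9 genes (edgeR), beside 0.0303% of all genes, and no unadjusted p under 0.05, beside 9.69%. *Cpt1a* and *Ehhadh* were at -0.29 (-0.97 to 0.39) and -0.11 (-0.65 to 0.44) here. *Angptl4* was lower in every KPG1-PPARαΔ13 tumor (log2 fold change -0.85, 95% interval -1.99 to 0.28), and *Slc25a20* higher in every one (0.30, -0.12 to 0.72). Fibroblast markers, at 126.6 to 183.0 against 265.5 to 528.5 CPM, and alveolar type I markers, at 1435.6 to 1714.4 against 1976.8 to 3177.9 CPM, were also lower without overlap, and their part in the *Angptl4* difference was not tested. The 2 genes without overlap stand beside 17.6% of all genes, 10.3% higher and 7.25% lower. Averaged over both diets, the 9 genes lay between -0.37 (*Pdk4*) and 0.28 (*Ehhadh*), and none passed the test, beside 0.0484% of all genes, or had an unadjusted p under 0.05, beside 4.53%, or was without overlap, beside 0.188%. DESeq2 and limma voom, run on the same counts, also called 0 of the 9 genes in each of the 7 comparisons.

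Spread within groups differed widely among the 9 genes. The SD of log2 CPM within groups was 1.67 for *Pdk4*, 1.47 for *Vnn1* and 1.30 for *Acot1*, at percentiles 97.5, 96.1 and 94.5 of 14108 genes, whose median was 0.384. *Acaa1b*, with 0 to 210 counts per tumor, was at 1.79. *Cpt1a* was at 0.417, *Ehhadh* at 0.240 and *Slc25a20* at 0.182, the last at percentile 5.5. Both carnitine genes and *Ehhadh* thus varied less between tumors of a group than *Angptl4* (0.752) and *Acot2* (0.916).

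Tumors of one mouse share its genotype, sex and diet, and still differed in the variable genes. *Pdk4* differed 5.43-fold between the 2 tumors of a KP mouse, 23.4-fold between those of a KPG1 mouse and 3.61-fold between those of a KPG1-PPARαΔ13 mouse. *Vnn1* differed 8.85-fold, 6.27-fold and 8.91-fold in the same mice. *Slc25a20* differed 1.2-fold to 1.42-fold, *Ehhadh* 1.02-fold to 1.30-fold and *Cpt1a* 1.01-fold to 1.47-fold. A large part of the range of *Pdk4* and *Vnn1* was thus present between tumors of one animal.

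**Figure D3:**
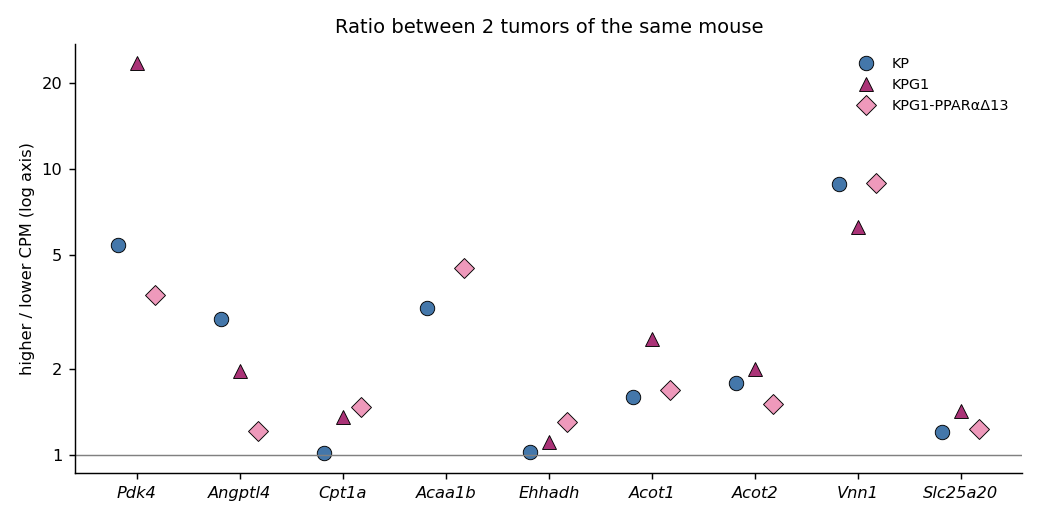
Ratio of the higher to the lower CPM (y axis, log scale) between 2 tumors of the same mouse, for each gene (x axis) in the 3 mice that gave 2 tumors. *Pdk4* and *Vnn1* differ 3.61-fold to 23.4-fold, and *Slc25a20*, *Ehhadh* and *Cpt1a* less than 1.5-fold; the *Acaa1b* ratio of the KPG1 mouse is not drawn, since 1 of its tumors had 0 counts.

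Pairs of the 9 genes were compared over the 9 mice, with tumors of a mouse averaged (36 pairs, exact permutation tests, two-sided). *Acot1* and *Acot2* varied together, with Pearson r = 0.953 (exact p = 0.000237, adjusted p = 0.00853) and Spearman rho = 0.767 (exact p = 0.0214, adjusted p = 0.257), and r = 0.828 without the 2 mice farthest from the median of *Acot1*. Within groups, over the 12 tumors, r was 0.953. Of the *Acot1* windows 10.4% are also *Acot2* sequence, and the part of shared reads in this likeness was not tested. *Cpt1a* tended to be high where the thioesterases were low. For *Acot2* r was -0.795 (exact p = 0.01, adjusted p = 0.14) and rho -0.717 (exact p = 0.0369). For *Acot1* r was -0.745 (exact p = 0.0117, adjusted p = 0.14) and rho -0.800 (exact p = 0.0138). Without the 2 mice farthest from the median of *Cpt1a*, r was -0.703 for *Acot2* and -0.649 for *Acot1*. Neither pair passed the adjustment over 36 pairs. Within groups r was -0.924 and -0.903. No other pair passed the adjustment, *Ehhadh* with *Acaa1b* (r = 0.171) and *Pdk4* with *Angptl4* (r = -0.135) among them.

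**Figure D4:**
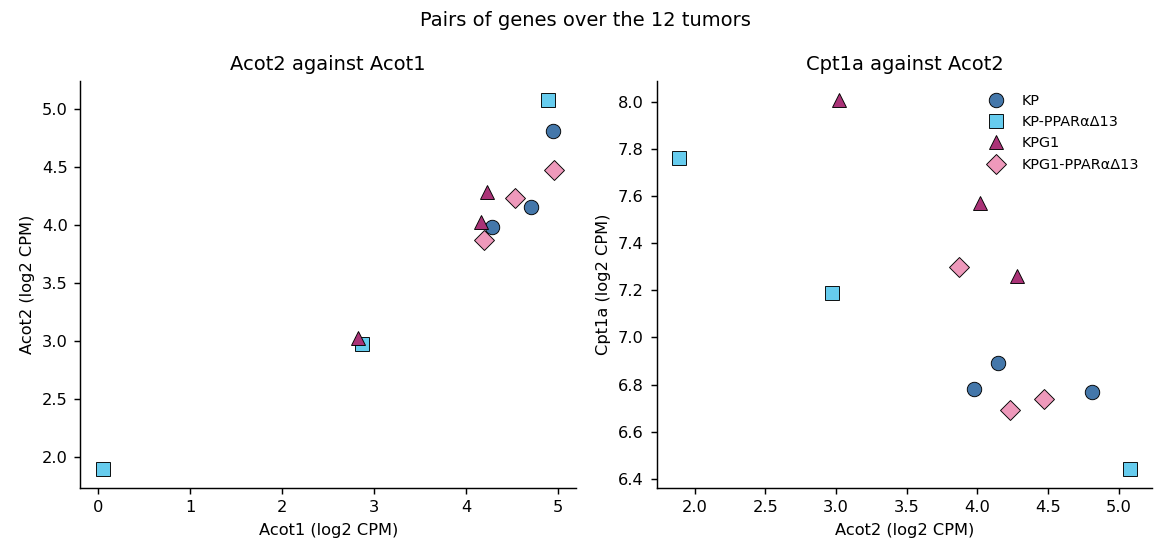
Log2 CPM of *Acot2* against *Acot1* (left) and of *Cpt1a* against *Acot2* (right) in the 12 tumors, with 1 point per tumor, colored by group. *Acot1* and *Acot2* lie along a rising line that ends in KP-PPARαΔ13 tumor 3, and *Cpt1a* is lower where *Acot2* is higher, with r = -0.795 over the 9 mice.

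Genes related to the 9 by family were measured beside them. Of the 16 family genes tested, none was called in any of the 7 comparisons (edgeR), and 0 to 2 in each comparison had an unadjusted p under 0.05, beside 4.53% to 11.8% of all genes. *Cpt1b*, the muscle form of *Cpt1a*, was at 0.171 to 0.667 CPM in all tumors, and *Cpt1c*, the brain form, at 3.07 to 18.7 CPM, with a log2 fold change of -1.19 between KPG1-PPARαΔ13 and KPG1 (adjusted p = 0.42 from edgeR). *Cpt2*, the partner of *Cpt1a* on the inner membrane, was at 27.2 to 42.5 CPM. Of the other pyruvate dehydrogenase kinases, *Pdk1*, a target of hypoxia-inducible factor, was at 79.7 to 207.8 CPM, *Pdk2* at 22.6 to 69.8 CPM and *Pdk3* at 19.1 to 41.6 CPM. *Pdk2* was at -0.77 between KP-PPARαΔ13 and KP (adjusted p = 0.379 from edgeR). *Acot6*, a neighbor of *Acot1* and *Acot2*, had -2.83 in that comparison (adjusted p = 0.351), at 0.137 to 6.57 CPM. *Angptl8*, which like *Angptl4* takes part in the control of lipoprotein lipase, was at 1.64 to 6.95 CPM, and *Vnn3* at 0.205 to 4.51 CPM. *Hsd17b4*, the second bifunctional enzyme of the peroxisome, was at 84.2 to 239.8 CPM.

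A wider list of 40 PPARα targets, written with earlier results of these data known, held 34 genes that could be tested, and none was called in any comparison (edgeR). Between KP-PPARαΔ13 and KP, 14 were above 0 and 20 below, with a median log2 fold change of -0.124 against -0.008 over all genes, and 1 gene was higher and 3 lower without overlap. Over all genes 6.55% were higher and 6.7% lower without overlap. At an unadjusted p under 0.05 there were 1 higher and 5 lower of the 34, beside 11.4% of all genes. *G0s2*, an inhibitor of fat breakdown, was at -2.49 (adjusted p = 0.305 from edgeR). *Creb3l3*, a liver transcription factor, was at 2.33 (adjusted p = 0.408), and *Pdzk1* at 1.08 (adjusted p = 0.832).

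Between KPG1-PPARαΔ13 and KPG1, 9 of the 34 were above 0 and 25 below, with a median of -0.285 against 0.023, and 10 were lower and 2 higher without overlap, where 9.41% of all genes were lower and 11.2% higher. At an unadjusted p under 0.05 there were 4 lower and 2 higher, beside 10.8% of all genes. The alveolar type I, alveolar type II and adipocyte marker sums were lower without overlap in this comparison too, as given above, and their part in this list was not tested. *Txnip*, an inhibitor of glucose uptake, was at -1.39 (adjusted p = 0.42 from edgeR), and *G0s2* at -1.03 (adjusted p = 0.59). *Fabp1*, the liver fatty acid carrier, was at 4.001 (adjusted p = 0.42) through KPG1-PPARαΔ13 tumors 1 and 3, which came from one mouse and had 10.6 and 21.2 CPM. The 9 genes had a median of 0.152 here with none lower without overlap, and the difference between the lists was not tested. Averaged over both genotypes, the induction put 10 of the 34 above 0 and 24 below, with a median of -0.150 against 0.008. At an unadjusted p under 0.05 there were 2 higher and 7 lower, where 850 of all 16527 genes were higher and 812 lower. The smallest adjusted p of the list was 0.176 (edgeR), and 0 genes were without overlap, beside 0.49% of all genes.

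In KPG1 against KP, 22 of the 34 were above 0 and 12 below (median 0.228 against -0.029). At an unadjusted p under 0.05 there were 2 higher and 0 lower, beside 6.23% of all genes. *Acadm*, which was not among these, was at 0.61 (unadjusted p = 0.0536, adjusted p = 0.787 from edgeR). Without overlap 4 were higher and 0 lower, where 4.82% of all genes were higher and 5.12% lower. Sex and genotype cannot be told apart here either. Between the doxycycline groups 17 lay on each side (median 0.021 against 0.005), 4 higher and 1 lower at an unadjusted p under 0.05, beside 9.69% of all genes. *Fabp1* was at 4.83 (adjusted p = 0.462 from edgeR) and *Txnip* at -0.83 (adjusted p = 0.508 from edgeR). Without overlap 4 were higher and 1 lower there, where 10.3% of all genes were higher and 7.25% lower. The *Cyp4a* genes, the strongest PPARα targets of liver, were near absent: *Cyp4a10*, *Cyp4a14*, *Cyp4a31* and *Cyp4a32* had 1, 0, 7 and 19 counts in total over the 12 tumors. Among 2 further genes singled out after their values were seen, *Fgf21*, the fasting hormone of liver, stayed at or below 0.514 CPM. *Plin2*, the coat of lipid droplets, was at 89.5 to 180.3 CPM.

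**Figure D5:**
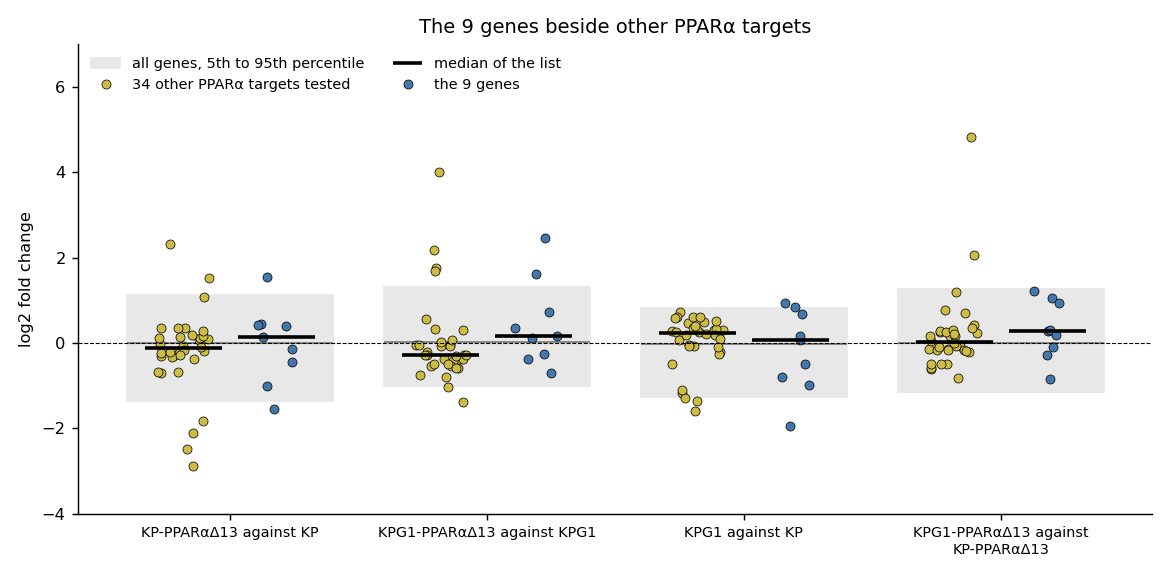
Log2 fold changes (y axis) of the 9 genes (blue) and of 34 other PPARα targets (yellow) in the 4 pairwise comparisons (x axis); black bars are list medians, grey boxes hold all genes from the 5th to the 95th percentile and grey lines are their medians. The other targets sit lowest in KPG1-PPARαΔ13 against KPG1, at a median of -0.285, where the median of the 9 genes is 0.152.

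Among 11 receptors and cofactors, none was called in any comparison (edgeR), and at most 2 in a comparison had an unadjusted p under 0.05, beside the same 4.53% to 11.8% of all genes. *Ppara* had a log2 fold change of 3.13 between KP-PPARαΔ13 and KP (standard error 1.03, adjusted p = 0.328) and 0.48 between KPG1-PPARαΔ13 and KPG1 (adjusted p = 0.88 from edgeR). *Ppard* and *Pparg*, receptors that bind the same DNA repeat, were at 24.5 to 85.4 and 40.1 to 92.3 CPM. *Ppard* was at -0.85 between the doxycycline groups (adjusted p = 0.492 from edgeR).

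*Pdk4* is also known as a target of FOXO and the glucocorticoid receptor and *Angptl4* of hypoxia, and lists for these were measured beside them. Of 9 genes of FOXO and the glucocorticoid receptor, 1 was called in 1 comparison, beside 8 genes or 0.0484% of all genes tested there. This list was written with earlier results of these data known. The gene called, *Fkbp5*, was lower in tumors labelled KPG1 than KP over both diets (log2 fold change -1.31, standard error 0.18, adjusted p = 0.0323 from edgeR). It was at 33.2 to 57.8 CPM in the 6 KP and KP-PPARαΔ13 tumors and 15.0 to 22.9 CPM in the 6 others. The summed level of the list was highest, at 881.2 CPM, in KP tumor 1, the tumor with the highest *Pdk4*, against 445.5 to 717.7 CPM in the other 11. It was lower in KPG1-PPARαΔ13 (445.5 to 499.7 CPM) than in KPG1 (564.9 to 599.1 CPM), without overlap. KP tumor 1 was also highest in leukocyte markers (34.1 against 2.33 to 12.7 CPM over 4 genes), macrophage markers (149.9 against 29.6 to 112.1 CPM) and adipocyte genes (63.0 against 15.5 to 47.4 CPM). The part of these in the *Pdk4* level was not tested. Of 9 hypoxia genes none was called (edgeR), with at most 2 at an unadjusted p under 0.05 in a comparison, beside 4.53% to 11.8% of all genes, and their sum was 1129.1 to 1660.0 CPM in KP and 1519.3 to 2211.0 CPM in KP-PPARαΔ13. Between KP-PPARαΔ13 and KP, 8 of the 9 were above 0 and 1 below, with *Car9*, a hypoxia marker, at 2.05 (adjusted p = 0.49 from edgeR). Between the doxycycline groups 0 were above 0 and 9 below, with *Car9* at -2.62 and *Vegfa* at -0.77 (adjusted p = 0.499 from edgeR for both). There 2 of the 9 were lower without overlap, beside 7.25% of all genes. In KPG1 against KP 6 were above 0 and 3 below, and in KPG1-PPARαΔ13 against KPG1 1 was above and 8 below. The part of hypoxia in the *Angptl4* level was not tested. *Pdk4* and *Angptl4* are also known from fat cells. Of 6 adipocyte genes, 5 were detected and 3 had a mean of at least 1 CPM, with 15.5 to 63.0 CPM summed. *Lep* was at 0 and *Adipoq* at or below 0.154 CPM in every tumor, so the sum came mostly from the other genes of the list. The part of fat cells in either level was not tested.

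Over the 12 tumors and 14118 genes with a mean of at least 1 CPM, the genes whose log2 CPM was most like that of each gene were sought by Pearson r. *Cpt1a* was closest to *Slc7a11*, the cystine importer (r = 0.989), *Eif4a2* (0.959) and *Hpn* (0.952). *Angptl4* was closest to *Emp2* (0.968), *Tmem140* (0.958) and *Arntl2* (0.957), and *Emp2*, a gene abundant in alveolar type I cells, ranged from 158.9 to 950.0 CPM. *Acot1* was closest to *Gm5406* (0.948), *Zfp454* (0.934) and *Gm15446* (0.930), and *Acot2* to *Arf6* (0.939), *Gm5406* (0.916) and *Ppm1l* (0.910). *Acaa1b* was closest to *Ccdc32* (0.927), *Zfp408* (0.914) and *Tomm34* (0.910), *Slc25a20* to *Carkd* (0.897), *Gm6421* (0.843) and *Acad8* (0.835), and *Ehhadh* to *Lin7c* (0.881), *Usp45* (0.858) and *4732490B19Rik* (0.818). *Vnn1* was closest to *Adam12* (0.873), *Steap2* (0.840) and *Scx* (0.834), and *Pdk4* to *Cdk17* (0.866), *Sfmbt2* (0.841) and *Asb4* (0.799). The highest of so many r is large by selection, and none of these is a test.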

How the data were processed

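Libraries were made with a stranded mRNA kit and read as single ends of 85 nt. The authors trimmed with cutadapt (1.4.2 in the submitters' processing notes, another version in the study's methods), aligned to mm10 with HISAT2 and, per the processing notes, counted reads per gene with featureCounts 1.4.4, and the deposited values are raw counts. The gene annotation and the strand setting of the counting are not given in the sources used here. Total counts per tumor were 25263794 to 32654223, and the per-tumor files equal the combined table.

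Counts were tested with edgeR 4.0.16 (R 4.3.3; TMM, filterByExpr by group, quasi-likelihood, 12 tumors in 1 fit without covariates), with Benjamini-Hochberg adjustment over 16527 genes and a threshold of 0.05. The study's limma voom (limma 3.58.1) and DESeq2 1.42.0 were alternatives, as were other scalings and filters, sex as a covariate, a replicate block, tumors of a mouse summed and each tumor left out. The test was tried on simulated data, with changes placed in KP-PPARαΔ13 and read against KP. It recovered 6% of 2-fold, 50% of 4-fold, 82% of 8-fold and 86% of 16-fold changes (50 genes each). A gene that was not called may therefore still differ. CPM are TMM-scaled, and log2 CPM used a prior count of 2. Positions, exon lengths and coding sequences come from GENCODE M21 (GRCm38, the build mm10), which holds 96.6% of the gene IDs. Correlations used SciPy. The 9 genes and all lists were chosen with earlier results of these data known. List genes named are those past the threshold, up to 2 in each direction with the largest log2 fold change at a mean of at least 1 CPM, relatives of the 9 genes, and *Ppara*. Some items that this rule names are not reported here.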

Additional observations from a re-analysis of the deposited data

How the results depend on the processing

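No call among the 9 genes depended on the processing: under the 23 settings run, 0 of the genes passed the threshold in any of the 7 comparisons, and the smallest adjusted p was 0.0965 (*Angptl4*, KP-PPARαΔ13 against KP, DESeq2). Of 1345 recomputed log2 fold changes of the 9 genes, 98 had the opposite sign, 72 of 756 with a tumor left out and 26 of 589 otherwise, and 32 of the 63 values kept one sign throughout. The study's filter on a mean of at least 20 TPM left 4 of the 9 genes to test. *Acaa1b* rested on 0 to 210 counts per tumor, and the other 8 genes on 27 or more.

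For counts of all genes called, DESeq2 gave 372 (KP-PPARαΔ13 against KP), 211 (KPG1-PPARαΔ13 against KPG1), 60 (KPG1 against KP), 155 (KPG1-PPARαΔ13 against KP-PPARαΔ13), 286 (interaction), 288 (induction averaged over genotypes) and 39 (genotype averaged over diets), against 1, 1, 6, 5, 0, 3 and 8 with edgeR, and the cause was not tested. In the order of these comparisons, the count was 2 in the first and 5 in the sixth without a filter on low counts, 0 in the second with voom, 4 in the seventh with the TPM filter, and 0, 0 and 10 in the first 3 with only the groups compared, where fewer samples enter. It was 0, 2 and 2 in the first, the third and the fourth with sex as a covariate, and 0, 0, 2, 2 and 3 in the first 4 and the seventh with tumors of a mouse summed. With a tumor left out it ranged from 0 to 1, 0 to 2, 2 to 6 and 2 to 10 in the first 4 comparisons and from 2 to 13 in the sixth. The lowest were without KP tumor 1, KPG1 tumor 1, KP tumor 1, KPG1-PPARαΔ13 tumor 1 and KPG1 tumor 1 in turn.

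Replicate numbers do not pair these tumors: the deviations of 18 same-numbered pairs correlated at r = -0.21 to 0.173, 3 of them above 0.1, and 2 of 12 tumors were closest to their own number. With the replicate number as a block, the counts were 0 in the first, 2 in the second, 3 in the fourth and 5 in the seventh comparison. Under the block the sign turned for *Acaa1b* in the first (-0.299) and seventh comparison (-0.227), for *Ehhadh* in the sixth (-0.002) and for *Acot2* in the seventh (0.017).

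The sign also turned as follows, and the cause was not tested. With sex as a covariate, *Acot2* was at 0.001 in the first comparison, -0.368 in the second, 0.772 in the third, -0.368 in the interaction and 0.588 in the seventh, *Acot1* at -0.094 in the second and 0.656 in the third, and *Acaa1b* at -0.094 in the seventh. With voom, *Acaa1b* was at -0.187 in the first and -0.393 in the seventh, *Vnn1* at -0.245 in the fourth and -0.593 in the interaction, *Ehhadh* at -0.004 in the sixth and *Acot2* at 0.160 in the seventh. With tumors of a mouse summed, *Vnn1* was at -0.044 in the first and -0.253 in the third, and *Angptl4* at -0.205 in the seventh. The *Vnn1* interaction was -0.017 with DESeq2 and with its size factors, and -0.027 without a filter. With near-identical copies summed, *Acaa1b* was at 0.120 in the third comparison and *Acot1* at -0.020 in the seventh.

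Leaving out 1 tumor, the values whose sign turned had these lowest and highest log2 fold changes. In the first comparison they were -0.331 and 1.126 for *Acaa1b*, -1.844 and 0.022 for *Acot2*, and -0.380 and 0.724 for *Vnn1*. In the second they were -0.545 and 0.237 for *Angptl4*, -0.385 and 1.329 for *Vnn1*, and -0.044 and 0.162 for *Slc25a20*. In the third they were -1.010 and 0.750 for *Vnn1*, and -0.006 and 0.208 for *Slc25a20*. In the fourth they were -0.566 and 0.076 for *Cpt1a*, -0.282 and 0.051 for *Ehhadh*, -0.176 and 1.691 for *Acot2*, and -0.358 and 0.674 for *Vnn1*. The *Vnn1* interaction ran from -0.571 to 1.189. In the sixth they were -0.524 and 1.531 for *Pdk4*, -0.077 and 0.089 for *Ehhadh*, -0.947 and 0.133 for *Acot1*, -0.751 and 0.181 for *Acot2*, -0.122 and 0.735 for *Vnn1*, and -0.090 and 0.028 for *Slc25a20*. In the seventh they were -1.870 and 0.216 for *Pdk4*, -0.201 and 0.410 for *Angptl4*, -0.505 and 0.416 for *Acaa1b*, -0.209 and 0.872 for *Acot1*, -0.335 and 0.598 for *Acot2*, and -0.416 and 0.465 for *Vnn1*.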
